A study of Mus musculus with 12 samples.

Results

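The PIM kinases are encoded in the mouse by 3 genes, Pim1, Pim2 and Pim3, which were taken by their Ensembl identifiers from a table of 51826 genes. All 3 were among the 15038 genes that passed the filter on low counts. PIM proteins are serine/threonine kinases that are active once made, since they need no activating phosphorylation, so their amount is set largely by transcription, RNA decay, translation and protein turnover. Cytokine receptors that signal through JAK kinases and STAT5, the interleukin 7 (IL7) receptor among them, induce PIM genes in lymphocyte precursors. PIM kinases phosphorylate regulators of survival, the cell cycle and cap-dependent translation, and they share many substrates with the AKT kinases.

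RNA was sequenced from 12 lines of pro-/pre-B cells, B lymphocyte precursors grown from the bone marrow of 2 C57BL/6 mice. After 7 days of marrow culture in IL7, cells from each animal were transduced with the empty retroviral vector pMIG, which carries GFP (EV, 3 lines per mouse), or with pMIG-BCR-ABL (BCR-ABL1, 3 lines per mouse). BCR-ABL1 is the fusion kinase of the Philadelphia chromosome. At 48 h the BCR-ABL1 lines were moved to medium without IL7 for 1 week. The EV lines stayed in IL7 and were sorted for GFP, so the kinase, IL7 withdrawal and this sorting cannot be told apart. In the name of a line the digit is the mouse and the letter the line, so that EV 2C came from mouse 2. Since 3 lines share each mouse, p-values measure the spread between lines and not between animals.

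Counts on genes summed to between 34791011 and 64547911 in EV lines and between 45230023 and 66011225 in BCR-ABL1 lines. All 10 B lineage markers were measured and none was called changed over all lines of both mice. They summed to 4916 to 7995 CPM (read counts scaled to library size) with EV and to 4876 to 5494 CPM with BCR-ABL1. Of them Cd24a did not overlap between the conditions, with means of 2748 CPM with EV and 1986 CPM with BCR-ABL1. EV 2C stood apart in counts from the other EV lines of mouse 2. Levels are given as CPM after scaling by TMM, a correction for differences in library makeup. A gene was called changed when edgeR's glmTreat found a change beyond 1.5-fold at an adjusted p under 0.05. In mouse 1 alone this test called Vpreb1 (log2 fold change 1.51), Igll1 (1.19) and Blnk (1.05) higher, and no other B lineage marker. In mouse 2 alone these genes had -0.44, -0.52 and -0.21, and no B lineage marker was called. Among these markers a difference between the mice passed only for Vpreb1 and Igll1 (edgeR glmQLFTest of the interaction, adjusted p = 0.000412 and 0.00577).

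In build GRCm38, Pim1 (ENSMUSG00000024014) lies at chr17:29490753-29496112, Pim2 (ENSMUSG00000031155) at chrX:7878262-7883432 and Pim3 (ENSMUSG00000035828) at chr15:88862186-88865726, all on the forward strand. Each gene has 6 exons in its principal transcript, with 313 coding codons in Pim1, 370 in Pim2 and 326 in Pim3. The transcripts of the 3 genes share no stretch of 31 bases, so reads of that length or longer that match 1 of them exactly cannot be counted for another. An antisense gene, Gm26885, overlaps the start of Pim1 on the opposite strand. Gm26885 had at most 40 counts in a line, whereas Pim1 had at least 2609, and whether counting used the strand is not given.

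The stretches before the transcription starts are shown because the 3 genes behaved differently between the conditions, as described further on. Each runs from 250 to 51 bases before the RefSeq start (GRCm38.p6, forward strand), at chr17:29490535-29490734 for Pim1, chrX:7878056-7878255 for Pim2 and chr15:88861944-88862143 for Pim3. All 3 genes matched the RefSeq promoter table. Capitals mark the GC box GGGCGG and the CCAAT box CCAAT, each read on either strand.
Pim1: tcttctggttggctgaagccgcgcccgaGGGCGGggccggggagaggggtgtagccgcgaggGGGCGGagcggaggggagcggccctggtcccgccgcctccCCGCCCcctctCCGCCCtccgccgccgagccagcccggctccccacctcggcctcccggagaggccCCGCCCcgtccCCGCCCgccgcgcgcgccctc
Pim2: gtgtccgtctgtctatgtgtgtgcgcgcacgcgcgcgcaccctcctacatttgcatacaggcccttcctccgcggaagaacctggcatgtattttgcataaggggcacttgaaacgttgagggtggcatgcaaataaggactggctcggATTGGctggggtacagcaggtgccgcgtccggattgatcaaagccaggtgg
Pim3: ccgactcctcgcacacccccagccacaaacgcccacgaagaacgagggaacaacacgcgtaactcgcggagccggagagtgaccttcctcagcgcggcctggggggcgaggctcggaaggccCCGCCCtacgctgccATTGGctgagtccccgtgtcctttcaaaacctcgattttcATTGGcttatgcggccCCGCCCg

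The Pim1 stretch was 82.5% G and C, more than 99.4% of 32851 promoter stretches of the same length, whose median was 51.5%. It held 28 CpG dinucleotides and 6 GC boxes, a motif present in 24.6% of all stretches. The Pim2 stretch was 57.5% G and C, with 14 CpG, 1 CCAAT box and 0 GC boxes. The Pim3 stretch was 65.0% G and C, with 21 CpG, 2 GC boxes and 2 CCAAT boxes, and CCAAT occurs in 28.4% of all stretches. None of the 3 stretches held TTCNNNGAA, the core motif of STAT5 (5.76% of all stretches), or TATAAA (9.14%), on either strand. RefSeq lists a second start of Pim1 inside the gene, and the stretch before it, at chr17:29492835-29493034, was 46.5% G and C and held none of these 4 motifs. These matches describe letters in a short window and say nothing of binding elsewhere. Since the window ends 51 bases before the start, a TATAAA or other motif nearer to the start could not be found.

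Pim1, the founding member, which was found as an integration site of a leukemia virus, was the PIM gene that rose in BCR-ABL1 lines. Its level in EV lines was 49.1 CPM in 1A, 47.3 CPM in 1B, 49.6 CPM in 1C, 108 CPM in 2A, 177 CPM in 2B and 158 CPM in 2C. In BCR-ABL1 lines it was 870.1 CPM in 1A, 816 CPM in 1B, 812 CPM in 1C, 819 CPM in 2A, 847 CPM in 2B and 861 CPM in 2C. The lowest BCR-ABL1 line thus lay well above the highest EV line, and within EV the 3 lines of mouse 2 lay above the 3 of mouse 1. The EV mean was 98.2 CPM ± 58.8 (SD, n = 6), and the BCR-ABL1 mean was 838 CPM ± 25.0 (SD, n = 6). The fitted change was 8.53-fold, a log2 fold change of 3.09 with a standard error of 0.36 (edgeR glmTreat, adjusted p = 0.000192). Standard errors here and below come from the spread of log2 CPM (prior count 2) between lines, and not from the edgeR fit. Of all 15038 tested genes, 5.99% were called higher with BCR-ABL1 and 6.49% lower, and Pim1 ranked 427th by the size of its rise. The conditions did not overlap for 25.6% of all genes, and for 12.1% they did not overlap with BCR-ABL1 on the higher side, as for Pim1. The exact permutation test over the 12 lines gave p = 0.00216, the smallest it can give, and within mice it gave p = 0.005, again the smallest possible. In bulk RNA, more cells that express a gene and more RNA per cell cannot be told apart.

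**Figure D1:**
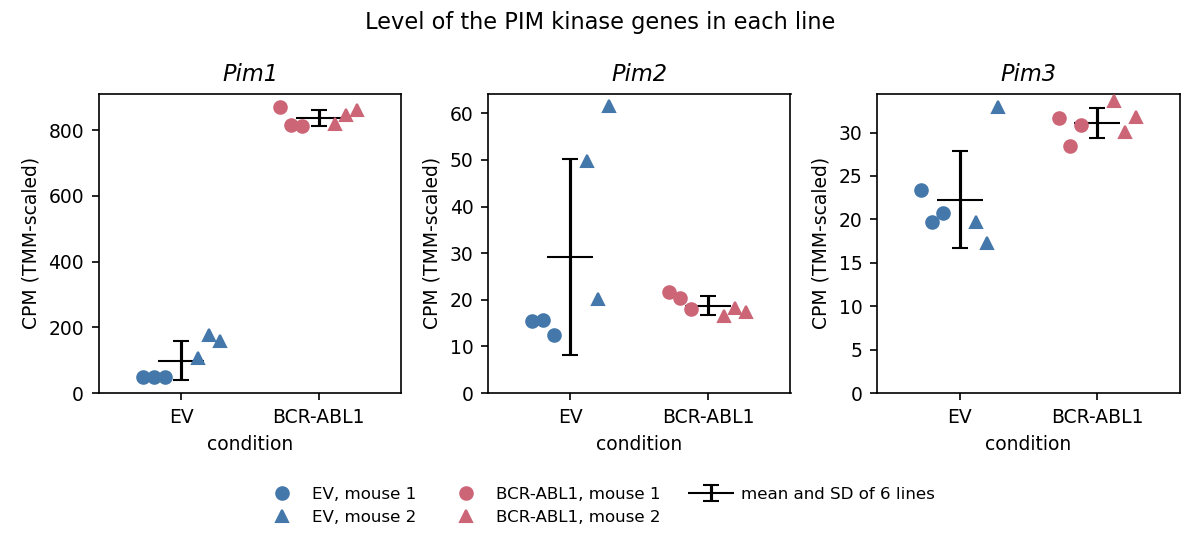
Level of Pim1, Pim2 and Pim3 (vertical axes, CPM after TMM scaling, each from 0 on its own scale) in each EV and BCR-ABL1 line, with circles for mouse 1, triangles for mouse 2 and bars for the mean and SD of 6 lines. Pim1 separates the conditions, with EV lines up to 177 CPM and BCR-ABL1 lines from 812 CPM, whereas the conditions overlap for Pim2 and Pim3.

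Pim2, the X-linked member, which is known for a role in lymphoid growth and survival, had no common direction. It was at 15.5 CPM in EV 1A, 15.6 CPM in EV 1B, 12.5 CPM in EV 1C, 49.9 CPM in EV 2A, 20.1 CPM in EV 2B and 61.6 CPM in EV 2C. BCR-ABL1 lines held 21.8 CPM in 1A, 20.5 CPM in 1B, 18.1 CPM in 1C, 16.5 CPM in 2A, 18.3 CPM in 2B and 17.3 CPM in 2C. Every BCR-ABL1 line thus fell between the EV lines of mouse 1 and the highest EV lines of mouse 2. The mean was 29.2 CPM ± 21.02 (SD, n = 6) for EV, against 18.8 CPM ± 1.98 (SD, n = 6) for BCR-ABL1. Pim2 had a log2 fold change of -0.64 with a standard error of 0.40, and was not called (edgeR glmTreat, adjusted p = 0.742). This standard error comes from the log2 CPM of the lines and not from the fit, so no interval is given for the fitted value. Neither a marked fall nor the absence of a change is shown. EV 2C weighed on this value, since without it the log2 fold change was -0.27. The exact permutation test gave p = 0.433.

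Pim3, the member first described as a depolarization-induced kinase, had a small difference. EV lines held 23.4 CPM in 1A, 19.7 CPM in 1B, 20.7 CPM in 1C, 19.7 CPM in 2A, 17.3 CPM in 2B and 33.0 CPM in 2C. BCR-ABL1 lines held 31.7 CPM in 1A, 28.4 CPM in 1B, 30.9 CPM in 1C, 33.6 CPM in 2A, 30.03 CPM in 2B and 31.8 CPM in 2C. Apart from EV 2C, each EV line lay below each BCR-ABL1 line. The means were 22.3 CPM ± 5.60 (SD, n = 6) and 31.1 CPM ± 1.78 (SD, n = 6), and the fitted ratio was 1.39. The log2 fold change of 0.48, with a standard error of 0.14, did not pass the test for a change beyond 1.5-fold (edgeR glmTreat, adjusted p = 1). Against no change it passed (edgeR glmQLFTest, adjusted p = 0.0120), and the exact permutation test gave p = 0.0130. Of all 15038 tested genes, 3389 were higher and 3897 lower by the same glmQLFTest. Without EV 2C the log2 fold change was 0.63 (adjusted p = 0.385 against 1.5-fold).

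The spread of all 3 genes was smaller among BCR-ABL1 lines than among EV lines. The coefficient of variation of Pim1 over 6 lines was 59.9% in EV and 2.99% in BCR-ABL1 lines. It was 72.0% and 10.6% for Pim2, and 25.1% and 5.72% for Pim3. Most of the EV spread of Pim1 and Pim2 lay between the mice, and the difference in spread was not tested.

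In EV lines the mean of Pim1 was 48.7 CPM ± 1.17 (SD, n = 3) in mouse 1 and 148 CPM ± 36.0 (SD, n = 3) in mouse 2, a ratio of 3.03. Pim2 had means of 14.5 CPM ± 1.76 (SD, n = 3) and 43.8 CPM ± 21.4 (SD, n = 3), a ratio of 3.02. For both genes the 3 EV lines of mouse 2 lay above the 3 of mouse 1, a lack of overlap in either direction that 32.8% of all genes had. The exact permutation test gave p = 0.1 for each, the smallest that 3 against 3 lines allow. The ratio for Pim3 was 1.10, and its EV lines overlapped between the mice. In BCR-ABL1 lines the ratios of mouse 2 to mouse 1 were 1.01 for Pim1, 0.864 for Pim2 and 1.05 for Pim3.

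The change with BCR-ABL1 therefore differed between the lines of the 2 mice for Pim1 and Pim2. Pim1 rose 17.2-fold in the lines of mouse 1 (log2 fold change 4.11, edgeR glmTreat, adjusted p = 1.99e-11) and 5.75-fold in those of mouse 2 (2.52, adjusted p = 0.00217). The difference of the 2 log2 fold changes was -1.58 (edgeR glmQLFTest of the interaction, adjusted p = 0.000401). Pim2 had a log2 fold change of 0.48 in mouse 1 (adjusted p = 1) and of -1.32 in mouse 2 (adjusted p = 0.198). Neither value was called, but their difference of -1.80 passed the interaction test (adjusted p = 0.0139). For Pim3 the values were 0.53 and 0.46, and their difference of -0.07 did not pass (adjusted p = 0.911). Over all tested genes 16.9% passed the interaction test. The mouse cannot be told apart from anything else that its lines share.

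**Figure D2:**
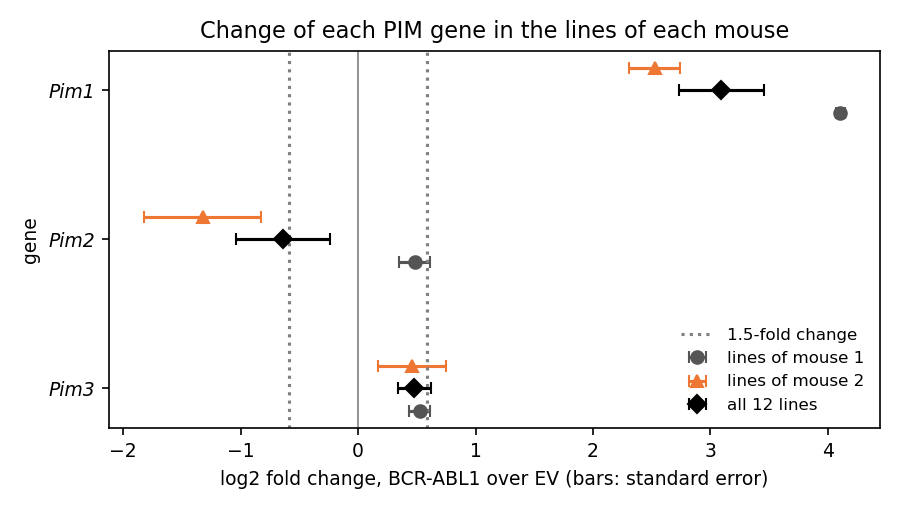
Log2 fold change of each PIM gene, BCR-ABL1 over EV (horizontal axis), in the lines of mouse 1 (circles), of mouse 2 (triangles) and in all 12 lines (diamonds). Bars are standard errors from the log2 CPM of the lines, and dotted lines mark a 1.5-fold change. Pim1 lies beyond 1.5-fold in both mice, at 4.11 and 2.52, Pim2 lies on opposite sides of 0, at 0.48 and -1.32, and Pim3 is alike at 0.53 and 0.46.

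Some genes in the lists of markers of other cells moved with the conditions, and a single gene could carry the sum of a list. The 10 T and NK cell markers summed to 3.59 to 37.5 CPM with EV, highest in EV 2B, the EV line with the most Pim1 RNA, and to 72.4 to 87.5 CPM with BCR-ABL1. Cd2 made up most of it, with 2.40 to 35.5 CPM and 71.8 to 87.0 CPM, whereas Nkg7, Ncr1 and Trbc1 had at most 3 counts in every line. Cd3d went the other way and was called lower, from 0.485 to 0.0754 CPM, and Cd3g, too low to be tested, had means of 0.165 and 0.00283 CPM. Cd3e, Cd4 and Cd8a were also too low to be tested. Of the 10 myeloid markers only Ctss passed the count filter. They summed to 6.44 to 50.97 CPM with EV and to 50.7 to 75.4 CPM with BCR-ABL1, most of it Ctss. The EV sums were 47.6 to 50.97 CPM in mouse 1 and 6.44 to 14.6 CPM in mouse 2. Ctss was not called over all lines (edgeR glmTreat, adjusted p = 0.398). Its log2 fold change was 0.12 in mouse 1 alone, not called, and 2.62 in mouse 2 alone (adjusted p = 0.00923). This difference passed the interaction test (edgeR glmQLFTest, adjusted p = 0.000465). Elane, Cd14, Csf3r and Fcgr1 had at most 3 counts in every line. The 9 erythroid and megakaryocyte markers summed to 3.10 to 9.12 CPM with EV, again highest in EV 2B, and to 6.88 to 13.8 CPM with BCR-ABL1. Among them Hbb-bt was called higher, from 2.58 to 8.54 CPM (adjusted p = 0.0296), with overlap between the conditions. Itga2b was called lower, from 2.097 to 1.06 CPM (adjusted p = 0.0470), and Hba-a1, Hba-a2 and Pf4 had at most 3 counts in every line. Cd2, Cd3d, Hbb-bt and Itga2b were called in mouse 1 alone. In mouse 2 alone they were not (edgeR glmTreat, adjusted p = 0.292, 0.0560, 0.359 and 0.514). The mast cell markers summed to at most 0.429 CPM and the stromal markers to at most 2.05 CPM in any line. These sums do not show that other cells were present, and a part of such cells in the change of Pim1 was not tested.

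Levels of different genes were compared per kilobase of exon, which was 3362 bases for Pim1, 2795 for Pim2 and 2427 for Pim3. In EV lines the mean was 29.2 CPM per kilobase for Pim1, 10.4 for Pim2 and 9.18 for Pim3. Pim1 was the highest in 6 of 6 EV lines, and the other two did not differ beyond their spread, with Pim2 above Pim3 in 3 of 6 lines (exact sign-change permutation test, p = 0.875). In BCR-ABL1 lines the order was Pim1 at 249 CPM per kilobase, Pim3 at 12.8 and Pim2 at 6.71, the same in 6 of 6 lines. Pim1 was 37.3 times as high as Pim2 and 19.5 times as high as Pim3 there, and Pim3 was 1.92 times as high as Pim2. Each of the 3 differences in BCR-ABL1 lines, and both differences of Pim1 in EV lines, gave p = 0.03125 in the exact permutation test, the smallest that 6 lines allow (0.0375 after Benjamini-Hochberg adjustment over 6 pairs).

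**Figure D3:**
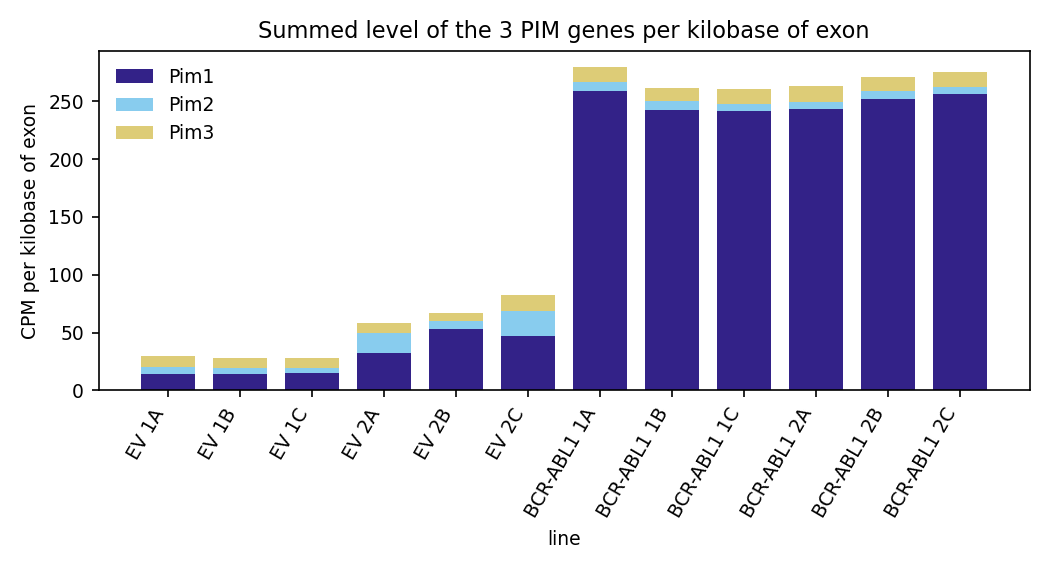
Level of Pim1, Pim2 and Pim3 per kilobase of exon (vertical axis, CPM per kilobase, stacked from 0) in each of the 12 lines. The stacks reach 27.7 to 82.6 in EV lines and 261 to 279.7 in BCR-ABL1 lines, where Pim1 fills nearly the whole stack.

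The summed level of the 3 genes per kilobase rose from 48.8 ± 23.7 (SD, n = 6) to 269 ± 7.84 (SD, n = 6). Pim1 supplied 57.3% of the EV sum on average, with a range of 49.0% to 78.6%, and 92.7% of the BCR-ABL1 sum, with a range of 92.5% to 93.0%. The share of Pim2 was 20.5% in EV and 2.50% in BCR-ABL1 lines, and that of Pim3 was 22.2% and 4.77%. By mean level per kilobase, Pim1 stood at rank 1583 of 14998 genes in EV lines and at rank 217 in BCR-ABL1 lines. Pim2 moved from rank 4611 to 6149 and Pim3 from rank 5105 to 3939.

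The genes whose log2 CPM followed each PIM gene most closely over the 12 lines were sought among 11054 genes, as a description, since the lines share conditions and mice. For Pim1 they were Slfn2 of the Schlafen family (Pearson r = 0.997), the semaphorin gene Sema7a (r = 0.993) and Map3k8, which encodes the kinase TPL2 (r = 0.992). All 3 were called higher, from a mean of 2.29 to 179 CPM for Slfn2, from 0.442 to 19.5 CPM for Sema7a and from 4.63 to 18.6 CPM for Map3k8. For Pim2 they were Ndrg1 (r = 0.938), the calcium sensor gene Stim2 (r = 0.923) and the glycosyltransferase gene Galnt14 (r = 0.895), and none of them was called. For Pim3 they were Snd1, which is also a PIM substrate (r = 0.980), the transketolase gene Tkt (r = 0.977) and Armc6 (r = 0.977), none of them called either. Among the PIM genes themselves r was -0.03 for Pim1 with Pim2, 0.75 for Pim1 with Pim3 and 0.10 for Pim2 with Pim3.

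Genes beside the PIM genes were examined within 500 kb. Around Pim1, 16 genes were tested, of which 3 were called higher and 0 lower, where 5.99% of all tested genes were called higher and 6.49% lower. Fgd2, an exchange factor for CDC42 and one of the nearest protein-coding genes, 111092 bases before Pim1, rose from 7.77 to 207 CPM (log2 fold change 4.74, adjusted p = 0.000111). Mtch1, a mitochondrial outer membrane protein and the next gene beyond Fgd2, rose from 109 to 200 CPM, a log2 fold change of 0.87 (adjusted p = 0.0332) that was not called by DESeq2, in mouse 2 alone, with mouse and letter as replicate block (adjusted p = 0.0507) or without 1 of several lines. The third was Ppil1, which was named after its values were seen (0.84, adjusted p = 0.0127). On the other side Gm17657 and Tmem217 were too low to be tested.

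Around Pim2, 29 genes were tested and 1 was called, where 12.5% of all tested genes were called in either direction. It was Praf2, which was named after its values were seen and rose from 0.491 to 4.34 CPM. The nearest neighbours of Pim2 were not called, with log2 fold changes of -0.63 for Kcnd1 (called lower in mouse 1 alone, -1.52, adjusted p = 0.0331), -0.21 for Otud5, -0.21 for Slc35a2 and -0.26 for Pqbp1. Around Pim3, 17 genes were tested and 1 was called lower, Zdhhc25, also named after its values were seen, from 1.13 to 0.310 CPM. The neighbours Alg12 (-0.38) and Creld2 (0.38) were not called, and Ttll8 and Mlc1 were too low to be tested.

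**Figure D4:**
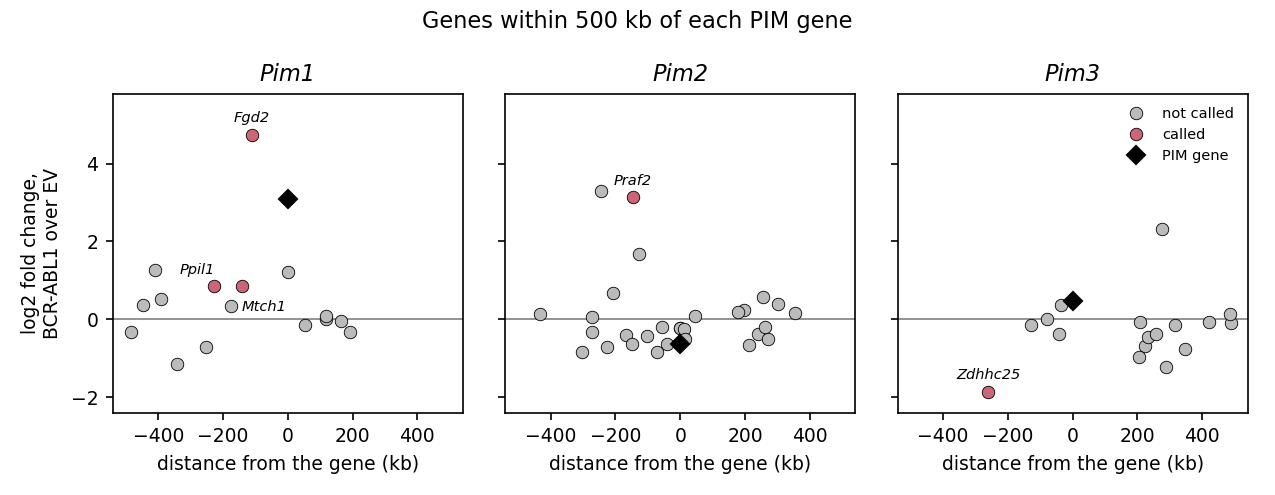
Log2 fold change, BCR-ABL1 over EV (vertical axes), of tested genes within 500 kb of each PIM gene against their distance from it in kilobases (horizontal axes). Diamonds are the PIM genes, red points are called genes and grey points are not called; Fgd2 at 4.74 lies above Pim1 at 3.09, and the points beside Pim2 and Pim3 lie mostly near 0.

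The genes that act above, beside and below the PIM kinases were grouped in 7 lists of 86 genes, of which 83 were tested, 13 were called higher and 7 lower. This is 24.1% called, against 12.5% of all tested genes, and the median log2 fold change was 0.07 against -0.02. Since the lists were chosen with earlier results of these data known, the higher share can follow from that choice and is only a description. Among 15 tested inducers of PIM genes, 2 were called higher and 2 lower. The RNA of STAT factors that drive Pim1 transcription was not called, with log2 fold changes of 0.01 for Stat5a, 0.07 for Stat5b and -0.13 for Stat3. Phosphorylation of these factors, and so their activity, was not measured in these data. Il7r, the receptor chain of IL7, fell from 358 to 172 CPM (-1.06, adjusted p = 0.00328) and its kinase Jak3 from 79.7 to 38.8 CPM (-1.04, adjusted p = 0.00198). Stat4 rose from 0.195 to 24.2 CPM and the ETS factor Erg from 0.0830 to 81.1 CPM.

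Of 15 other STAT5 target genes, 8 were called higher and 1 lower, with a median log2 fold change of 1.22. Over all tested genes 5.99% were called higher and 6.49% lower, but this list too was chosen with earlier results known. Like Pim1, the feedback inhibitor Cish rose, from 4.56 to 41.7 CPM (3.19, adjusted p = 0.0217), and so did Socs3, from 2.66 to 24.1 CPM (3.19, adjusted p = 0.00301). In the lines of mouse 2 alone Cish was not called (2.04, adjusted p = 0.297), nor was Il7r (-1.03, adjusted p = 0.108). Socs2 had a log2 fold change of 1.51 and was not called (adjusted p = 0.205), but it was with mouse as replicate block (2.02, adjusted p = 0.0355) and without EV 2C (2.39, adjusted p = 0.00210). Bcl2l1, which encodes the survival protein BCL-XL, was not called (0.52, adjusted p = 0.897) except in mouse 1 alone (1.14, adjusted p = 1.44e-06), and Myc was not called (0.17). Bcl6, a repressor that STAT5 lowers, fell from 40.1 to 2.37 CPM.

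Of the 13 tested PIM substrates in survival and the cell cycle, 0 were called by edgeR's glmTreat, against 12.5% of all tested genes. In the test against no change 2 were higher and 1 lower, and of all 15038 tested genes 3389 were higher and 3897 lower. The log2 fold changes were -0.13 for Bad, the death agonist that PIM kinases phosphorylate, 0.10 for Foxo1, -0.22 for Foxo3, 0.52 for Cdkn1a and -0.20 for Cdkn1b. Of 15 PIM substrates in translation and transcription, 2 were called higher, Socs1 and Socs3, both of which also stand among the STAT5 targets. Socs1 was called at a log2 fold change of 1.68 (adjusted p = 0.0361) and lost the call in mouse 2 alone, with mouse and letter as replicate block (adjusted p = 0.0615) and without 1 of several lines. Eif4b, the translation factor that PIM kinases phosphorylate, was not called (0.25). Of 3 substrates in migration and transport, the chemokine receptor Cxcr4 was called lower, from 217 to 103 CPM (-1.08, adjusted p = 0.00185). These are RNA levels, and phosphorylation by PIM kinases was not measured.

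Of 14 genes that control the amount of PIM RNA and protein, 1 was called higher and 2 lower. The shares over all tested genes were 5.99% higher and 6.49% lower. Zfp36, which encodes tristetraprolin, a protein that binds AU-rich RNA such as that of Pim1 and speeds its decay, fell from 67.1 to 27.8 CPM (-1.27, adjusted p = 0.0121; 0.111 in mouse 2 alone). Its relative Zfp36l2 fell from 215 to 117 CPM (-0.88, adjusted p = 0.0197), a call that was lost by DESeq2, in mouse 1 alone, with mouse and letter as replicate block (adjusted p = 0.0669), with no filter on low counts and without EV 1A. Eif4ebp1, which restrains cap-dependent translation, was called at 1.17 (adjusted p = 0.0396) and lost the call by DESeq2, in mouse 2 alone and in 9 of 12 fits that left out a line. Hsp90ab1, a chaperone of PIM proteins, was not called (0.49).

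Of 12 tested AKT, SGK and S6 kinases, which act in parallel to PIM kinases, 2 were called higher, against 5.99% of all tested genes. Sgk3 rose from 0.328 to 18.0 CPM and Rps6ka1 from 3.75 to 43.5 CPM, both of them like Pim1 in direction. Akt1 (-0.05) and Sgk1 (-0.91) were not called, but Sgk1 was called lower in mouse 2 alone (-2.38, adjusted p = 0.0250), and its change differed between the mice (difference -2.44, interaction adjusted p = 0.00330).

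**Figure D5:**
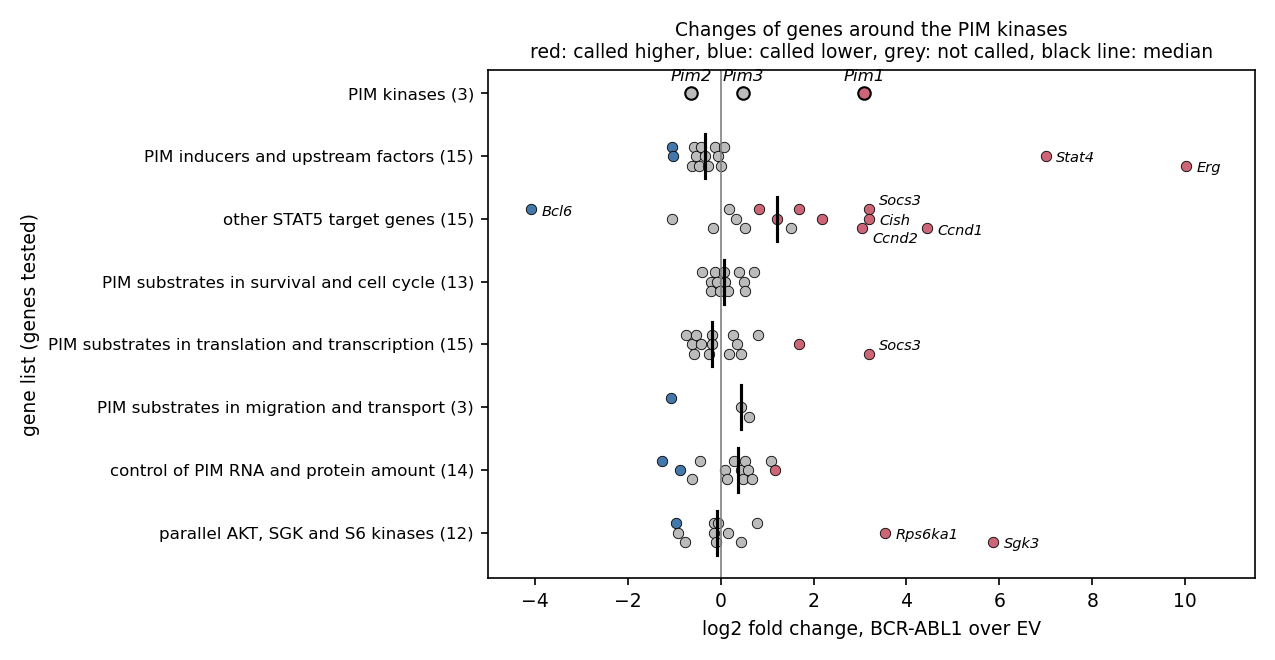
Log2 fold change, BCR-ABL1 over EV (horizontal axis), of the 3 PIM genes and of the tested genes in 7 lists (rows), with red for called higher, blue for called lower, grey for not called and a black line at each list's median. Pim1 at 3.09 lies above 1.22, the median of all 15 other STAT5 targets, and no PIM substrate of survival and cell cycle is called.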

How the data were processed

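Stranded total RNA libraries of 12 pre-B cell lines were sequenced, and the authors deposited whole-number read counts per gene for 51826 genes, without normalization. Per the labels, the submitters' processing notes name FastQC 0.11.5, Trimmomatic 0.36, TopHat2 2.1.1, Bowtie2 2.3.2, featureCounts 1.5.3 and build GRCm38. The strand setting and the annotation release are not given in the sources used here. GENCODE M21 (GRCm38) held 51633 of the identifiers.

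Genes were filtered with filterByExpr, scaled by TMM and tested with edgeR 4.0.16 (R 4.3.3). A quasi-likelihood fit of the 2 conditions over all 12 lines was tested by glmTreat for changes beyond 1.5-fold, and p-values were adjusted by Benjamini-Hochberg (threshold 0.05). The interaction of mouse and condition was tested with glmQLFTest. Single genes were also tested by two-sided exact permutation of log2 CPM (prior count 2), and levels were divided by the union of annotated exons. Alternatives were RLE size factors, other filters, a likelihood ratio fit, DESeq2 1.42.0, a test against no change, replicate blocks, each mouse alone and leaving out each line. The fits were tested on simulated counts. Total counts per line lay between 34791011 and 66011225, and none of the 12 pairs of lines of the same mouse and condition agreed within sampling noise.

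The names 1A to 2C recur in both conditions, and per the labels the digit is the mouse. After subtraction of condition means, EV and BCR-ABL1 lines from one mouse had correlations of 0.0853 to 0.212 with the same letter. With another letter they were 0.0937 to 0.240, and between different mice -0.203 to -0.0636. The mouse thus pairs the lines, whereas a further pairing by letter was not seen. The PIM genes and all lists were chosen with earlier results of these data known. The genes named are the PIM genes, their 2 nearest protein-coding genes on either side, the 3 genes of an average log2 CPM of at least 1 with the highest Pearson r to each, 18 preset partners, and in each list up to 2 called genes with the largest rise and fall and that same minimum level. Other genes are marked where they are named. A gene that this rule names is not reported here.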

Additional observations from a re-analysis of the deposited data

Results flagged for a closer look

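Of the results for the PIM genes, 2 were singled out because the change with BCR-ABL1 differed between the lines of the 2 mice by the test of the interaction (edgeR glmQLFTest). The difference of the log2 fold changes, mouse 2 minus mouse 1, was -1.58 for Pim1 (adjusted p = 0.000401) and -1.80 for Pim2 (adjusted p = 0.0139). Leaving out each line in turn gave -1.77 to -1.43 for Pim1 and -2.15 to -1.47 for Pim2, all past the threshold. For both genes the EV lines differed between the mice, by ratios of 3.03 and 3.02, while the BCR-ABL1 lines had ratios of 1.01 and 0.864. Over all tested genes 16.9% passed the same test. No line stood apart from the other 5 of its condition for any of the 3 genes by Dixon's test. Its largest ratio of gap to range was 0.613, for Pim3 in EV 2C. The range covered the lines of both mice, so this test cannot judge a line against the others of its mouse.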

How the results depend on the processing

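The rise of Pim1 kept its direction and its call under every alternative run, with adjusted p between 8.50e-13 and 0.00217. With mouse as replicate block its log2 fold change was 3.303 (adjusted p = 1.90e-05), that of Pim2 -0.43 and that of Pim3 0.48, and with mouse and letter as replicate block they were 3.32, -0.34 and 0.51. Neither block changed a call of the 3 genes. Pim2 turned to 0.48 in the lines of mouse 1 alone, and Pim3 passed only against no change (0.48). The difference between the mice for Pim3 ranged from -0.25 to 0.27 on leaving out a line, above 0 without EV 2C. The level of Pim2 minus Pim3 in EV lines turned to 0.38 (log2) with the longest transcript as length and to 1.26 CPM per kilobase on linear values, neither beyond the spread. Leaving out a line gave log2 fold changes of 2.95 to 3.34 for Pim1, -0.79 to -0.27 for Pim2 and 0.41 to 0.63 for Pim3.

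Against no change 3389 genes were higher and 3897 lower, and 28 and 20 in the lists. Over all genes, mouse 1 alone gave 2512 higher and 1877 lower, and mouse 2 alone 614 higher and 408 lower. In the lists, mouse 2 alone gave 8 higher and 5 lower. Leaving out a line gave 807 to 1353 higher genes, the most without EV 2C, and 802 to 1434 lower. Of the uncalled genes, in mouse 1 alone Galnt14 turned to 0.064, Ndrg1 to 0.77, Sgk1 to 0.053 and Stim2 to 0.30, and in mouse 2 alone Akt1 to 0.029, Kcnd1 to 0.34 (it was called in mouse 1 alone, at -1.52), Myc to -0.15 and Stat5a to -0.10. Stat5a turned to -0.0052 with the stricter filter. Leaving out a line gave -0.022 to 0.081 for Stat5a, -0.0844 to 0.031 for Akt1 and -0.021 to 0.54 for Myc. The cause of these turns was not tested.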
